A study of Mus musculus with 42 samples.

Results

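The 60 genes described here act in G2 and mitosis. They were listed by name, as CDK1 with its cyclins and entry factors, the mitotic kinases, the chromosomal passenger complex, the spindle checkpoint, the kinetochore, mitotic motors, cytokinesis factors and the proteins that shape mitotic chromosomes. Of the 60, 59 were found by symbol among the 19151 genes measured, and all 59 were tested. The remaining one, Sgol1, is not in the table under that symbol. Its current symbol, Sgo1, is, and its values are given apart. Microglia, the resident macrophages of the brain, were sorted from male wild-type (WT) and APP/PS1 C57BL/6 mice at 4, 6 and 12 months. APP/PS1 mice are a transgenic line that deposits amyloid beta with age. Fixed CD11b+/CD45+ cells were split by an antibody against Ki67, a nuclear protein of cycling cells, into proliferating (Ki67+) and non-proliferating (Ki67-) microglia, with up to 400 cells per library. WT mice gave 5 Ki67+ and 5 Ki67- libraries when 4 months old, 2 and 3 when 6 months old, 4 and 3 when 12 months old. From APP/PS1 mice came 4 and 4, 2 and 2, and 4 and 4 libraries of these ages.

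In G2, cyclin A and cyclin B bring CDK1 to activity, and Polo-like and Aurora kinases then drive chromosome condensation, spindle assembly and the attachment of kinetochores to microtubules. The spindle checkpoint holds the anaphase-promoting complex inactive until every chromosome is attached. The complex then marks cyclin B and securin for destruction, separase opens cohesin, and the cell divides. Transcription of many of these genes is held down outside the cycle by the DREAM complex and raised in G2 by MuvB with B-MYB and FOXM1, largely through a promoter element called the CHR (cell cycle genes homology region) with CCAAT boxes bound by NF-Y upstream of it. Ki67 protein is present through the active phases of the cycle, so a Ki67+ sort also takes cells outside G2 and mitosis.

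RefSeq promoter windows (build GRCm38.p6, 250 bases before to 50 after a gene's start) were at hand for 47 of the 59 genes. The CHR letters TTTGAA, read on both strands, stood in the windows of 35 of the 47 (74.5%), and in those of 16.2% of the 13879 genes of the table that have a window. CCAAT, on both strands, stood in 34 (72.3%) against 42.1%. Both stood in 1 window for 29 genes (61.7%) against 6.6%. The variant TTTAAA, which reads the same on both strands, was in 9 (19.1%) against 12.6%. The stretches below, each on its gene's strand, show how differently these genes are built at their starts. Top2a (chr11:99024190-99024309, minus strand), Kif11 (chr19:37376262-37376381, plus strand) and Cdk1 (chr10:69352939-69353032, minus strand) hold a CHR with CCAAT before it. Ccnb2 (chr9:70421555-70421674, minus strand) and Spc25 (chr2:69206214-69206333, minus strand) hold CCAAT here and a CHR elsewhere in the window. Birc5 (chr11:117849117-117849236, plus strand) and Mad2l1 (chr6:66535101-66535220, plus strand) hold neither set of letters, in the stretch shown or elsewhere in the window. The Birc5 window does hold the variant TTTAAA, at -220. The Mad2l1 window ends at 66535270, before the start of the gene in the GENCODE annotation at 66535390, so bases around that start were not searched. Capitals mark the CHR and CCAAT letters on either strand, and the other letters are in lower case.
Top2a: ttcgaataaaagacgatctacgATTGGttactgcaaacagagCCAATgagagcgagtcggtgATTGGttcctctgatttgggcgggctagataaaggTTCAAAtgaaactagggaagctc
Kif11: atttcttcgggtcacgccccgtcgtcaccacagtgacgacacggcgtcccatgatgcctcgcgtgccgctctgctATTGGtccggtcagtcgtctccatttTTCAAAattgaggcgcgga
Cdk1: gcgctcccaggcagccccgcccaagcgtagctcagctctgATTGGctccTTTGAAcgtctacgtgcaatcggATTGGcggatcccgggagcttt
Ccnb2: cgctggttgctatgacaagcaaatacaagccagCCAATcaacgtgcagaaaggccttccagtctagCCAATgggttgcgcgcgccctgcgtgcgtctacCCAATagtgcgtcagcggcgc
Spc25: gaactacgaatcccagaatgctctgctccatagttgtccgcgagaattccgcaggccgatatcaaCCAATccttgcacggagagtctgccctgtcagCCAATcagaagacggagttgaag
Birc5: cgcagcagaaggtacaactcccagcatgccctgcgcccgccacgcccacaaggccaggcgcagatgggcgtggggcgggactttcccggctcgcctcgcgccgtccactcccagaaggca
Mad2l1: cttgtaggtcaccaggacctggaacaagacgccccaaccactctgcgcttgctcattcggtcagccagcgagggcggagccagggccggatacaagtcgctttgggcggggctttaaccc
Ccnb2, Spc25 and Birc5 were among the genes with the largest and most widely shared differences below, whereas Kif11 and Mad2l1 were among the 4 that were never higher in Ki67+ libraries. The 35 genes with a CHR were higher in a median of 3 of the 6 comparisons of Ki67+ with Ki67-, and the 12 without it in a median of 2.5. A match of letters is a description of the window and not a measured binding site.

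Values are the authors' normalised expression on a log2 scale, so a difference of 1 stands for a 2-fold difference. They run from 3.07 to 18.3 over the table, with a gene's median at 7.43. Most of the G2 and mitosis genes sit near the middle of that order (31 of 59 below it), and how many reads lie behind a value cannot be read from the file. Labels do not say which libraries came from separate mice, so p-values measure the spread between libraries. That is the spread left after the authors' removal of surrogate variables, pooled over all 12 groups. Some libraries stand apart. The 3 WT 12-month Ki67- libraries nearly coincide, with median absolute differences over all genes of 0.019, 0.031 and 0.045 between them, and WT 4-month Ki67- replicates 1 and 2 differ by 0.017. All other pairs within a group differ by 0.083 or more. Whether those libraries share cells or were drawn together by the removal of surrogate variables cannot be told apart. Part of the results that rest on them are therefore also given with these 3, and those 2, counted as 1 library each. Other results that rest on them, such as counts by role and by cell type, are given only with every library counted. The 2 WT 6-month Ki67+ libraries had the lowest levels of 8 microglia genes, at 12.34 and 12.49 against 13.06 to 14.03 in the rest. All libraries thus held microglia genes far above the median gene.

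The sorted antigen was checked first through its own transcript. Mki67 encodes Ki67, and the sort was on the protein. In WT mice at 4 months its values were 8.37, 8.29, 6.73, 8.17 and 8.58 in Ki67+ and 7.95, 7.97, 8.37, 7.63 and 8.31 in Ki67- libraries, which overlap. At 12 months the WT Ki67+ libraries read 7.82, 7.76, 7.69 and 7.63 and the Ki67- libraries 8.81, 8.84 and 8.80, so the transcript was lower in all 4 libraries labelled Ki67+ (difference -1.09 ± 0.42 SE, limma adjusted p = 0.0362). The call was lost without WT Ki67+ replicate 3 or 4 or any 1 of the 3 Ki67- libraries, and with those 3 counted once the adjusted p was 0.206 (limma). At 4 months the APP/PS1 Ki67+ libraries read 8.67, 8.36, 9.37 and 8.95 and the Ki67- libraries 7.09, 7.36, 7.68 and 8.19, with no overlap (1.26 ± 0.39, limma adjusted p = 0.0222). That call was lost without Ki67+ replicate 3 or Ki67- replicate 1 (limma adjusted p up to 0.0661). In the other 3 comparisons the difference was 0.10 ± 0.50 (WT, 6 months), -0.23 ± 0.55 (APP/PS1, 6 months) and 0.82 ± 0.39 (APP/PS1, 12 months), none past the test. Mki67 was thus higher in Ki67+ libraries in 1 of the 6 comparisons and lower in 1.

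Averaged over the 59 genes, the 21 Ki67+ libraries had a level of 8.02 ± 0.29 and the 21 Ki67- libraries one of 7.12 ± 0.14 (SD). WT Ki67+ libraries ranged from 7.46 to 8.35 at 4 months, read 7.91 and 7.55 at 6 months, and ranged from 7.92 to 8.19 at 12 months. Those of APP/PS1 mice ranged from 8.06 to 8.43, read 7.91 and 7.30, and ranged from 8.07 to 8.31. Ki67- libraries of all 6 groups lay between 6.90 and 7.45. Within each genotype and age the groups did not overlap, and the lowest Ki67+ value of all, 7.30 in APP/PS1 mice at 6 months, was below the highest Ki67- value, 7.45 in WT mice at 4 months. In pooled cells, fewer cells in G2 or mitosis and less of this RNA per cell cannot be told apart.

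**Figure D1:**
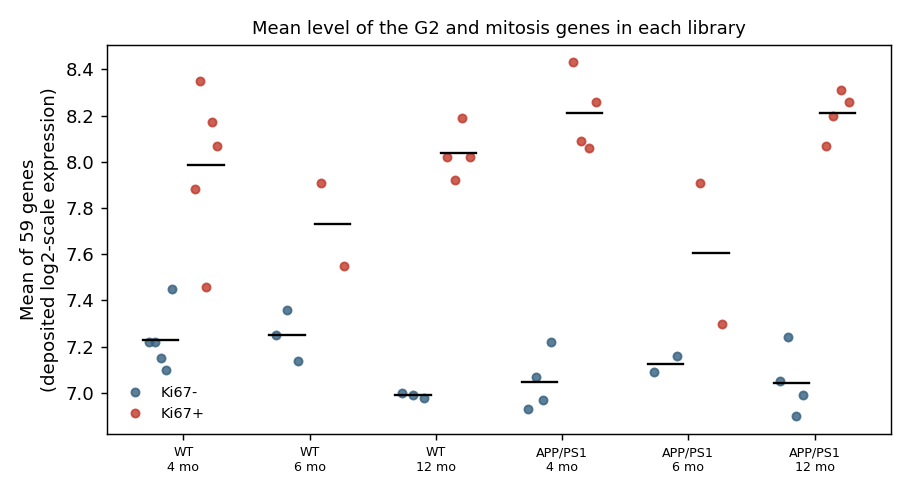
Mean deposited log2-scale expression of the 59 genes (vertical axis) in each library, grouped by genotype and age (horizontal axis). Points are libraries, red for Ki67+ and blue for Ki67-, with a bar at the group mean. Ki67+ points lie at 7.30 to 8.43 and Ki67- points at 6.90 to 7.45.

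In proliferating microglia most of the G2 and mitosis genes were higher at APP/PS1 4 and 12 months and at WT 12 months. The WT 12-month count rests on the coinciding Ki67- libraries. Smaller shares were higher at WT 4 and 6 months, and at APP/PS1 6 months the share was near that of all tested genes. In WT mice 27 of 59 genes were higher and 3 lower at 4 months, where 19.3% of all 14910 tested genes were higher and 14.5% lower, and 20 were higher and 7 lower at 6 months, against 17.8% and 19%. At 12 months 36 were higher and 3 lower, against 26.2% and 20.1%. Among APP/PS1 libraries 38 were higher and 1 lower at 4 months (12.3% and 9.24% of all genes), 5 higher and 0 lower at 6 months (5.21% and 2.6%), and 40 higher and 0 lower at 12 months (10.6% and 7.24%). By rising age, median differences of the 59 were 0.70, 0.52 and 1.03 in WT and 1.18, 0.38 and 1.21 in APP/PS1 mice, while over all tested genes they lay between -0.03 and 0.09. Values of the sorts did not overlap, with Ki67+ the higher, for 23, 31 and 47 of the 59 in WT (19.9%, 29.2% and 43.4% of all genes) and 34, 25 and 46 in APP/PS1 mice (15.2%, 31.2% and 15.6%). As shares, 45.8%, 33.9% and 61.0% of the 59 were higher in WT and 64.4%, 8.5% and 67.8% in APP/PS1 mice. The 6-month share in APP/PS1 mice was near its background, from 2 libraries against 2. With coinciding libraries counted once, the WT counts became 25 higher and 3 lower at 4 months (17.5% and 12.9% of all genes) and 19 higher and 0 lower at 12 months (13.3% and 9.16%). At APP/PS1 6 months leaving out Ki67+ replicate 1 or 2 left 2 genes and leaving out Ki67- replicate 2 left 3, and at WT 6 months leaving out Ki67+ replicate 1 left 13 higher. The WT 6-month values rest on the 2 Ki67+ libraries with low microglia genes and cannot be had without them.

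**Figure D2:**
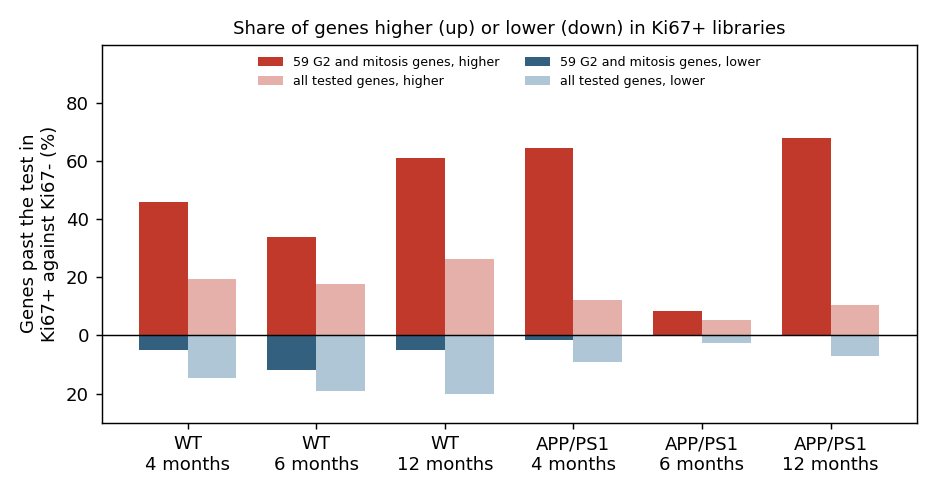
Share of genes past the limma test in Ki67+ against Ki67- libraries (vertical axis, %; up for higher, down for lower) by genotype and age. Dark bars are the 59 G2 and mitosis genes and pale bars all 14910 tested genes. For higher genes the dark bars exceed the pale ones in every group, least in APP/PS1 mice at 6 months (8.5% against 5.21%).

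Ccnb2, Cks2 and Spc25 were higher in all 6 comparisons (3 of 59, 5.1%, against 1.68% of all genes), and with coinciding libraries counted once Ccnb2 and Spc25 were. In all 4 comparisons at 4 and 12 months 18 genes were higher (30.5%, against 5.14%), and 15 (25.4%, against 4.39%) with coinciding libraries counted once. Those 15 were Ccna2, Ccnb2, Cdca3, Bub1b, Aurkb, Birc5, Cdc20, Cenpe, Ndc80, Spc25, Kif22, Kif4, Racgap1, Ect2 and Smc2, which take part in mitotic entry, attachment, spindle mechanics, cytokinesis and condensation. Mad2l1, Spc24, Kif11 and Kif15 were higher in none. The comparisons have no libraries in common, but all come from 1 normalisation.

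**Figure D3:**
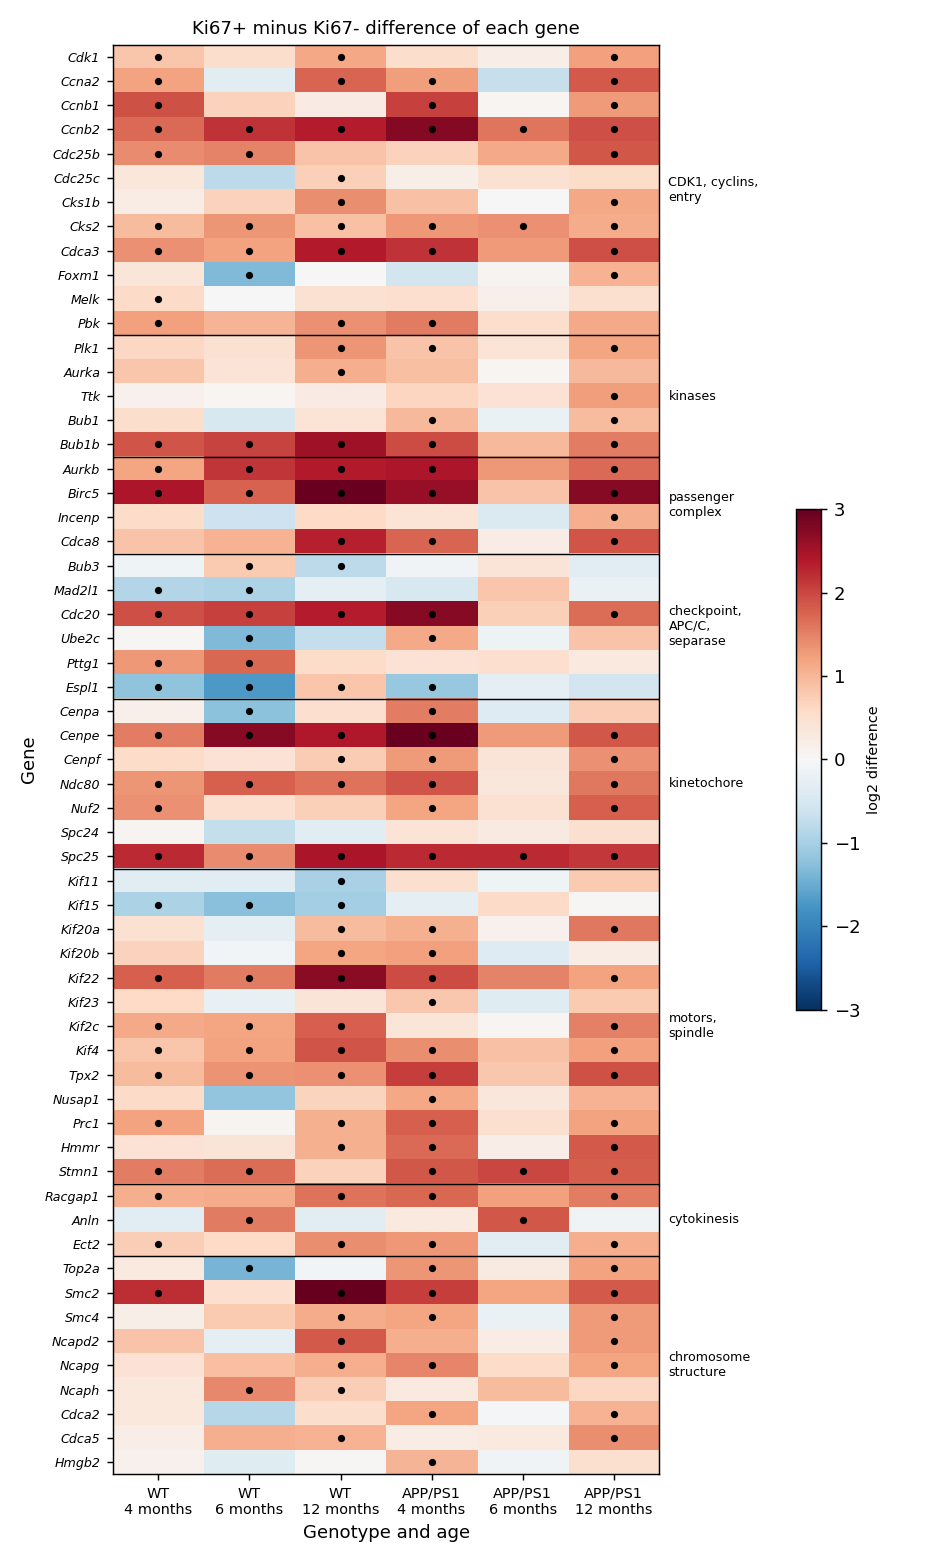
Ki67+ minus Ki67- log2 difference (colour, drawn to ±3; the value of Smc2 at WT 12 months lies beyond it) for each of the 59 genes (rows, by role) in the 6 genotype and age groups (columns). A dot marks a limma adjusted p under 0.05. Ccnb2, Cks2 and Spc25 carry a dot in every column, and the column of APP/PS1 mice at 6 months has 5 dots.

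CDK1, its cyclins and entry factors (12 genes) had 9, 4 and 8 higher members in WT and 6, 2 and 9 in APP/PS1 mice, again by rising age, and 1 lower call, Foxm1 at WT 6 months. Of all tested genes, 19.3%, 17.8% and 26.2% were higher in WT and 12.3%, 5.21% and 10.6% in APP/PS1 mice. Lower ones made up 14.5%, 19% and 20.1% in WT and 9.24%, 2.6% and 7.24% in APP/PS1 mice. Whether this role or those below depart from these shares was not tested. Ccnb2, cyclin B2, separated the sorts in every library, from 7.51 up in the 21 Ki67+ and up to 7.06 in the 21 Ki67- libraries. Its APP/PS1 4-month values were 9.41, 7.94, 9.11 and 9.35 against 6.26, 6.16, 5.96 and 6.40 (difference 2.76 ± 0.34, limma adjusted p = 1.75e-06). At WT 6 months it read 8.84 and 9.16 against 6.47, 7.06 and 7.00 (2.16 ± 0.43, limma adjusted p = 0.000381). A complete separation over 21 and 21 libraries was also found for 1.69% of all tested genes. Ccnb1, cyclin B1, the main activator of CDK1, did not follow Ccnb2 at every age. At 4 months its WT values were 9.02, 9.63, 8.01, 9.42 and 8.26 against 6.94, 7.00, 7.04, 6.92 and 6.95, far apart (1.90 ± 0.30, limma adjusted p = 3e-05). Those of 12-month WT mice were 8.36, 8.13, 9.0 and 8.19 against 8.16, 8.19 and 8.19, which overlap (0.24 ± 0.36, limma adjusted p = 0.619). That overlap rests on the 3 coinciding Ki67- libraries. Their Ccnb1 values lie above those of every other Ki67- library, which reach at most 7.71. Among APP/PS1 libraries Ccnb1 differed by 2.05 ± 0.34 at 4 months, 0.07 ± 0.48 at 6 months and 1.28 ± 0.34 at 12 months, the second of these not past the test.

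Cdk1, the kinase that starts mitosis, was higher in 3 of the 6 comparisons. It read 8.18, 7.99, 8.47 and 8.18 in WT Ki67+ libraries at 12 months against 7.07, 7.06 and 7.00 (1.16 ± 0.39, limma adjusted p = 0.0161), and 8.59, 9.02, 9.05 and 8.71 against 8.15, 7.74, 7.16 and 7.39 in APP/PS1 mice (1.23 ± 0.36, limma adjusted p = 0.0172). Neither pair of groups overlapped. With coinciding libraries counted once the WT 12-month adjusted p for Cdk1 was 0.14 (limma). At WT 4 months Cdk1 differed by 0.83 ± 0.32 (limma adjusted p = 0.0456), a call kept only when WT Ki67+ replicate 1 or 3 was the library left out, with an adjusted p of up to 0.101 without any of the other 8 and of 0.0617 with coinciding libraries counted once (limma). In the remaining comparisons its differences were 0.52 (WT, 6 months), 0.53 (APP/PS1, 4 months) and 0.21 (APP/PS1, 6 months), none past the test. Foxm1, a transcription factor of the G2 programme, read 5.40 and 6.23 in WT 6-month Ki67+ libraries and was lower there than in Ki67- libraries by -1.32 (limma adjusted p = 0.0269). That call was lost without WT 6-month Ki67+ replicate 1 or Ki67- replicate 2 (limma adjusted p up to 0.246). At APP/PS1 12 months Foxm1 was higher, by 1.05.

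The mitotic kinases and BubR1 (5 genes) had 1, 1 and 3 higher members in WT and 3, 0 and 4 in APP/PS1 mice, and none lower. At WT 4 and 6 months 1 of 5 lay near the 19.3% and 17.8% of all genes that were higher. Bub1b, which encodes the checkpoint protein BubR1, was higher in 5 of the 6 comparisons. At WT 12 months its Ki67+ values were 8.59, 8.73, 8.86 and 8.32 against 6.02, 6.05 and 6.15 (2.55 ± 0.33, limma adjusted p = 9.21e-07, and 0.000519 with coinciding libraries counted once). At APP/PS1 6 months they were 6.99 and 6.80 against 5.95 and 5.91, also without overlap, but the difference of 0.96 ± 0.43 did not pass (limma adjusted p = 0.173). Plk1, Polo-like kinase 1, was higher at 12 months in both genotypes and at 4 months in APP/PS1 mice. Its 12-month WT values were 7.79, 7.68, 7.97 and 7.63 against 6.50, 6.48 and 6.38 (1.32 ± 0.30, limma adjusted p = 0.00094), and those in APP/PS1 mice 8.02, 7.86, 8.43 and 8.14 against 6.71, 7.05, 6.44 and 7.54 (1.17 ± 0.28, limma adjusted p = 0.00472). No Ki67- library reached a Ki67+ library in either. The APP/PS1 4-month call for Plk1 (0.85 ± 0.28, limma adjusted p = 0.0293) was lost without Ki67+ replicate 1 or 4 or Ki67- replicate 2 or 3 (limma adjusted p up to 0.0839).

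The chromosomal passenger complex corrects faulty attachments and later acts in cytokinesis, with Aurora B as its kinase, survivin (Birc5) and borealin (Cdca8) as its targeting subunits and INCENP as its scaffold. Of its 4 genes, 2, 2 and 3 were higher in WT and 3, 0 and 4 in APP/PS1 mice, with none lower. Birc5 had the lowest p of the 59 genes in WT mice at 4 months and in APP/PS1 mice at 4 and 12 months. At WT 4 months it read 9.71, 9.41, 8.09, 8.97 and 8.46 against 6.35, 6.41, 6.32, 6.81 and 6.61 (2.43 ± 0.28, limma adjusted p = 4.15e-07). At APP/PS1 12 months it read 9.21, 9.66, 9.16 and 9.57 against 6.27, 7.2, 7.10 and 6.17 (2.72 ± 0.32, limma adjusted p = 1.13e-06). At APP/PS1 6 months the Ki67+ libraries read only 7.43 and 6.99 against 6.39 and 6.33 (0.85 ± 0.45, limma adjusted p = 0.262). Thus Birc5 separated the groups at each age and its 6-month values in APP/PS1 mice lay lower than in any other Ki67+ group. Aurkb, Aurora B, read 7.65, 9.30, 8.74 and 8.58 against 6.28, 6.27, 5.69 and 6.30 in APP/PS1 mice at 4 months (2.43 ± 0.38, limma adjusted p = 4.23e-05), and was higher in every comparison but APP/PS1 6 months (1.29 ± 0.53, limma adjusted p = 0.142).

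The checkpoint, anaphase-promoting complex and separase genes (6 genes) went in both directions, with 2, 3 and 2 higher and 2, 3 and 1 lower in WT mice, and 2, 0 and 1 higher and 1, 0 and 0 lower in APP/PS1 mice. The checkpoint genes Bub1, Bub1b and Ttk were counted with the kinases instead. They were higher in 2, 5 and 1 of the comparisons and lower in none. Cdc20, the activator of the anaphase-promoting complex, was higher in every comparison but APP/PS1 6 months. Espl1, separase, was lower in Ki67+ libraries at WT 4 months, where it read 7.39, 8.11, 7.51, 7.45 and 8.11 against 8.99, 8.92, 8.90, 8.57 and 9.24 without overlap (-1.21 ± 0.29, limma adjusted p = 0.00207). It was lower also at WT 6 months (-1.71 ± 0.42, limma adjusted p = 0.00219) and APP/PS1 4 months (-1.14 ± 0.32, limma adjusted p = 0.0127). At WT 12 months it was higher, 7.69, 7.79, 7.49 and 7.84 against 6.86, 6.84 and 6.87 (0.84 ± 0.35, limma adjusted p = 0.0492). That call rests on the 3 coinciding libraries, whose Espl1 values lie below those of every other Ki67- library, and with them counted once it did not pass. Mad2l1, which encodes the checkpoint protein MAD2, read 6.56, 7.42, 7.07, 7.67 and 7.62 against 8.28, 8.27, 7.61, 8.13 and 8.47 at WT 4 months, with a slight overlap and Ki67+ values mostly the lower (-0.88 ± 0.25, limma adjusted p = 0.00731). It was lower at WT 6 months as well (-0.93 ± 0.36, limma adjusted p = 0.0418). Ube2c, the ubiquitin-conjugating enzyme of the complex, was lower at WT 6 months (-1.33, limma adjusted p = 0.0205), a call lost without Ki67+ replicate 2 or Ki67- replicate 2 (limma adjusted p up to 0.196), and higher at APP/PS1 4 months (1.14). Bub3, a checkpoint protein, was higher at WT 6 months, with 10.80 and 11.02 against 9.99, 10.39 and 10.03 (0.77 ± 0.30, limma adjusted p = 0.0418). It read 9.24, 9.18, 9.42 and 9.32 against 10.07, 10.08 and 10.09 at WT 12 months (-0.79 ± 0.25, limma adjusted p = 0.0111, and 0.117 with coinciding libraries counted once).

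Kinetochore genes (7 genes) had 4, 3 and 4 higher members in WT and 6, 1 and 5 in APP/PS1 mice, with 1 lower call, Cenpa at WT 6 months. Spc25, a subunit of the NDC80 complex that grips microtubules, separated all 21 Ki67+ libraries (7.40 and up) from all 21 Ki67- libraries (up to 7.33). At APP/PS1 12 months its values were 7.69, 7.92, 8.15 and 8.11 against 5.69, 6.12, 5.79 and 5.83 (2.11 ± 0.33, limma adjusted p = 6.45e-05). At APP/PS1 6 months they were 8.88 and 7.98 against 6.12 and 6.25 (2.25 ± 0.46, limma adjusted p = 0.0025), a call lost without Ki67+ replicate 1 (limma adjusted p = 0.0565). Spc24, its direct partner in the complex, was higher in none of the 6. Cenpe, the kinetochore motor CENP-E, read 8.83, 8.69, 9.08 and 8.99 against 5.91, 5.88, 5.94 and 6.02 at APP/PS1 4 months, one of the widest gaps between the sorts (2.95 ± 0.40, limma adjusted p = 7.44e-06). At WT 6 months it read 8.67 and 8.84 against 6.03, 6.07 and 5.94 (2.74 ± 0.52, limma adjusted p = 0.000198).

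Motors and spindle genes (13 genes) had 6, 5 and 8 higher and 1, 1 and 2 lower members in WT mice and 10, 1 and 8 higher in APP/PS1 mice with none lower. At APP/PS1 6 months 1 of 13 lay near the 5.21% of all genes that were higher. Kif15 and Kif11 encode the kinesins that push spindle poles apart, and neither passed as higher in any of the 6 comparisons of Ki67+ with Ki67-. Kif15 was lower in WT Ki67+ libraries at all 3 ages, for instance at 12 months with 7.10, 7.08, 7.50 and 6.46 against 8.09, 8.05 and 8.0 (-1.01 ± 0.38, limma adjusted p = 0.0334, and 0.199 with coinciding libraries counted once). At 4 months the difference was -0.95 ± 0.32 (limma adjusted p = 0.0225, and 0.0655 without Ki67+ replicate 3). The APP/PS1 differences of Kif15 were -0.29, 0.58 and 0.03, none past the test. Kif11, known as Eg5, read 7.13, 6.82, 7.67 and 7.04 against 8.19, 8.16 and 8.06 at WT 12 months (-0.97 ± 0.36, limma adjusted p = 0.028, and 0.182 with coinciding libraries counted once). Its APP/PS1 12-month values were 7.59, 8.06, 7.70 and 7.85 against 7.14, 6.98, 7.04 and 6.94, higher without overlap but not past the test (0.78 ± 0.33, limma adjusted p = 0.101). At APP/PS1 4 and 6 months Kif11 differed by 0.49 and -0.13, neither past the test. Stmn1, stathmin, a protein that destabilises microtubules, was higher in 5 comparisons, at APP/PS1 6 months with 11.32 and 10.91 against 9.07 and 9.15 (2.00 ± 0.42, limma adjusted p = 0.00286). Stathmin is also abundant in young neurons.

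Of the 3 cytokinesis genes, 2, 1 and 2 were higher in WT and 2, 1 and 2 in APP/PS1 mice. Racgap1 and Ect2, which position the contractile ring, made up the 4- and 12-month calls. Anln, anillin, a scaffold of that ring, was the 6-month call in both genotypes. It read 9.62 and 9.84 against 8.76, 7.99 and 7.80 in WT (1.55 ± 0.39, limma adjusted p = 0.00298) and 9.30 and 9.63 against 7.54 and 7.63 in APP/PS1 mice (1.87 ± 0.43, limma adjusted p = 0.00615), with no overlap. Without APP/PS1 Ki67+ replicate 2 the second call was lost (limma adjusted p = 0.0799). Among Ki67+ libraries, the same 6-month ones held the highest mean levels of 8 oligodendrocyte and precursor genes. These were 9.76 to 10.36 in WT and 10.54 to 11.14 in APP/PS1 mice, against 7.94 to 9.22 in the other Ki67+ groups. The 6-month Ki67- libraries held 8.25 to 9.82 in WT and 7.92 to 7.96 in APP/PS1 mice, so the sorts overlapped in WT mice. Anillin is known in oligodendrocytes as a scaffold of myelin, and the part of that signal in its values was not tested.

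Chromosome structure genes (9 genes) had 1, 1 and 6 higher members in WT and 6, 0 and 7 in APP/PS1 mice, and 1 lower call. At WT 4 and 6 months 1 of 9 lay below the 19.3% and 17.8% of all genes that were higher. Smc2, the core of condensin, read 9.42, 9.67, 9.84, 10.24 and 9.11 against 7.49, 7.46, 7.34, 8.03 and 6.94 at WT 4 months (2.2 ± 0.27, limma adjusted p = 1.04e-06). At WT 12 months it read 9.67, 9.65, 10.00 and 9.92 against 6.30, 6.25 and 6.29, the largest difference of the 59 (3.53 ± 0.33, limma adjusted p = 1.07e-08, and 2.34e-05 with coinciding libraries counted once). Its Ki67+ values were 9.11 or higher in every library of 4 and 12 months, in both genotypes. At 6 months they were 8.81 and 8.34 in WT and 8.28 and 8.12 in APP/PS1 mice, with no call. Top2a, topoisomerase II alpha, which untangles sister chromatids, differed by 0.29 ± 0.34 and -0.09 ± 0.41 at WT 4 and 12 months, neither past the test. Its APP/PS1 4-month values were 9.72, 8.54, 8.06 and 9.16 against 7.08, 7.58, 7.81 and 7.75 (1.31 ± 0.38, limma adjusted p = 0.0152, and 0.0581 without Ki67+ replicate 1). At 12 months it read 8.56, 9.01, 9.04 and 9.17 against 7.80, 7.92, 7.47 and 7.77 (1.21 ± 0.38, limma adjusted p = 0.0288), a call lost without Ki67+ replicate 2, 3 or 4 or Ki67- replicate 3 (limma adjusted p up to 0.0617). At WT 6 months Top2a was lower, 7.26 and 6.41 against 8.20, 8.72 and 7.74 (-1.38 ± 0.49, limma adjusted p = 0.0292), and that call was lost without Ki67+ replicate 2 or Ki67- replicate 2 (limma adjusted p up to 0.263). Sgo1, shugoshin, which protects cohesin at centromeres, was higher in 3 of the 6 comparisons, at 0.74, 1.00 and 1.31.

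**Figure D4:**
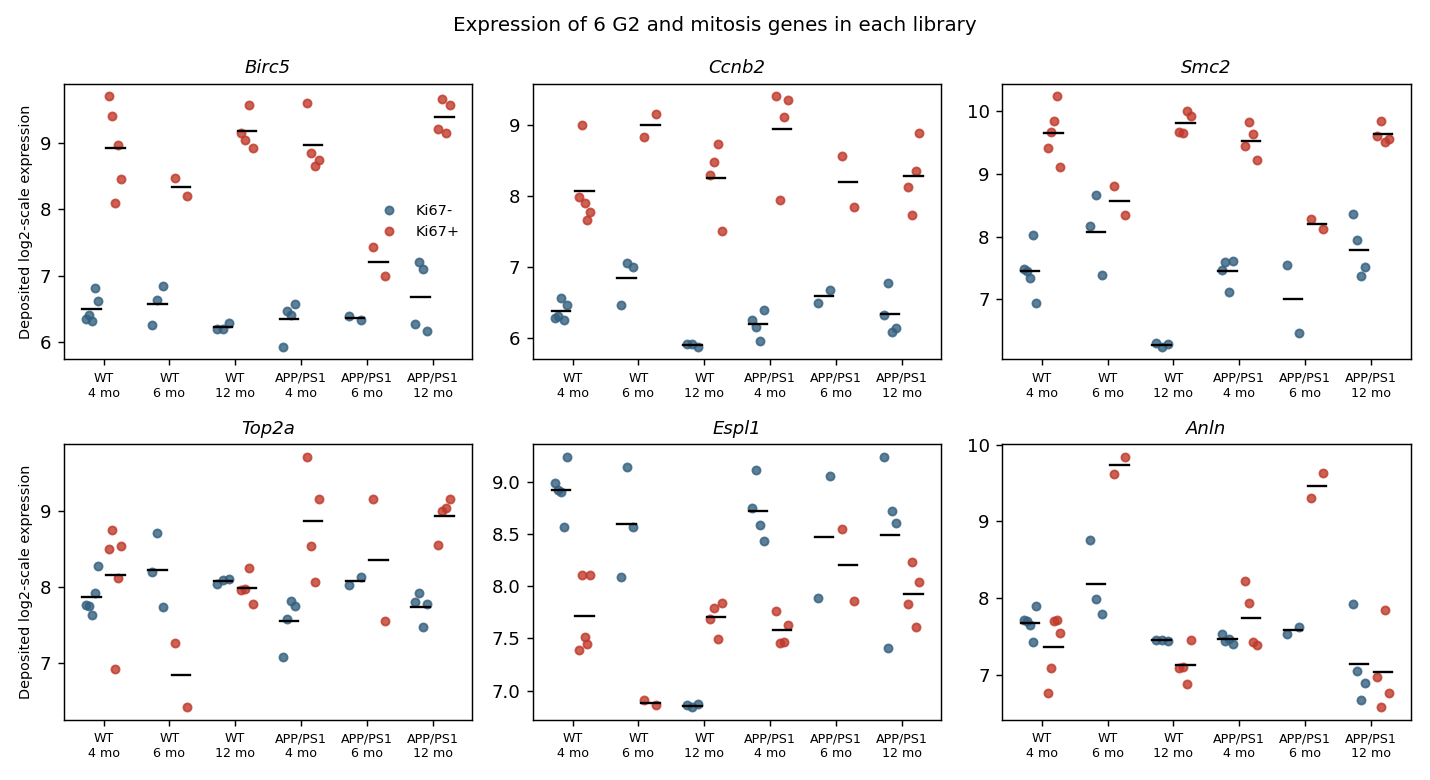
Deposited log2-scale expression (vertical axis) of Birc5, Ccnb2, Smc2, Top2a, Espl1 and Anln in each library by genotype and age (horizontal axis). Points are libraries, red for Ki67+ and blue for Ki67-, with a bar at the group mean. Birc5 and Ccnb2 part the colours at every age, whereas Top2a in WT mice does not at 4 and 12 months.

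Genes of other cell types moved with the sort. All 8 astrocyte genes on a list of 8 were higher in Ki67+ libraries at WT 4 months, 2 at 6 months and 7 at 12 months, and 8, 5 and 8 were in APP/PS1 mice, with median differences of 2.79, 0.88, 2.22, 2.41, 1.39 and 2.31. Their mean level was 9.0 to 11.36 in Ki67+ and 7.65 to 8.86 in Ki67- libraries. Of 8 neuron genes 4, 1 and 4 were higher and 1, 4 and 2 lower in WT, and 1, 2 and 4 were higher and none lower in APP/PS1 mice, with medians of 1.02, -0.39, 1.02, 0.31, -0.16 and 0.95. Their mean level was higher without overlap in Ki67+ libraries at WT 4 months and at 12 months in both genotypes. At WT 12 months it was 8.01 to 8.20 in Ki67+ and 7.16 to 7.19 in the 3 coinciding Ki67- libraries. The sorts overlapped at APP/PS1 4 months (7.04 to 8.19 against 6.88 to 7.08) and APP/PS1 6 months (6.63 to 7.30 against 6.95 to 7.03). They also overlapped at WT 6 months, with Ki67+ the lower on average (6.62 to 7.05 against 7.01 to 7.43). Of 6 neural progenitor genes 3, 1 and 2 were higher in WT and 2, 0 and 1 in APP/PS1 mice, with 1 lower at WT 6 months. Of 6 endothelial genes 0 to 2 were higher and 0 to 3 lower in a comparison, and of 5 tested peripheral immune genes 0 to 2 and 0 to 1. Of 8 oligodendrocyte and precursor genes 4 were higher and 1 lower at WT 6 months, 7 were higher at APP/PS1 6 months, and 2 to 3 were higher and 1 to 3 lower elsewhere. Of 8 microglia genes 7 were lower at WT 6 months, 1 at WT 12 months and none elsewhere. The part of these cells in the mitotic gene differences was not tested.

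Between APP/PS1 and WT mice few of the 59 genes differed. In Ki67+ libraries at 4 months none passed (0.0268% of all genes did, either way), with 5 at an unadjusted p under 0.05. At 6 months 3 were higher and 3 lower in APP/PS1 mice (6.95% and 2.92% of all genes), and at 12 months 2 were higher and 0 lower (4.43% and 5.34%). In Ki67- libraries none passed at 4 or 6 months (0.0% and 0.0604% of all genes either way), and 2 were higher and 2 lower at 12 months (8.71% and 7.72%). Hmmr, a spindle protein that binds hyaluronan, read 8.64, 8.51, 9.13 and 9.02 in APP/PS1 Ki67+ libraries at 12 months against 7.77, 7.59, 7.60 and 8.17 in WT (1.04 ± 0.31, limma adjusted p = 0.0337). Ttk, the checkpoint kinase MPS1, read 7.57, 8.26, 7.32 and 7.43 against 6.72, 6.46, 6.80 and 7.09 (0.87 ± 0.26, limma adjusted p = 0.0344). Neither gene's groups overlapped, which was also so, with APP/PS1 the higher, for 15.6% of all tested genes. Each call was lost in 5 of the 8 refits without 1 library (limma adjusted p up to 0.125). These left out WT replicate 1, 2 or 3 for both, APP/PS1 replicate 3 or 4 for Hmmr and 1 or 2 for Ttk. At 6 months Mad2l1 read 8.55 and 8.35 against 6.97 and 6.73 (1.60 ± 0.39, limma adjusted p = 0.00922), and Pttg1, securin, 9.84 and 9.22 against 11.42 and 11.85 (-2.10 ± 0.48, limma adjusted p = 0.00513). Kif15 and Spc24 were the other higher genes (1.85 and 1.26), and Kif2c and Ndc80 the other lower ones (-1.06 and -1.42). The calls of Mad2l1, Pttg1, Kif15 and Kif2c were lost in refits without WT replicate 2, those of Mad2l1 and Kif15 also without APP/PS1 replicate 1, those of Pttg1 and Kif2c without APP/PS1 replicate 2, and that of Kif2c without WT replicate 1. The WT 6-month Ki67+ libraries in these differences are those with low microglia genes.

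At 12 months the Ki67- calls between genotypes were Espl1 (1.64) and Smc2 (1.51), higher in APP/PS1 mice, and Ccnb1 (-1.18) and Kif11 (-1.11), lower. All rest on the 3 coinciding WT libraries, and with these counted once none passed (limma adjusted p from 0.0947 to 0.316). The Ki67 difference itself was compared between genotypes at each age. At 4 months it was larger in APP/PS1 than in WT mice for 48 of 59 genes, by a median of 0.45. Over all tested genes it was larger for 48.8%, with a median of -0.01. None of the 59 passed (0.0% of all genes did), with 11 of the 59 at an unadjusted p under 0.05. None passed at 6 months (2.86% of all genes, either way). At 12 months Kif11 was relatively higher in APP/PS1 mice (1.75, limma adjusted p = 0.0269) and Smc2 relatively lower (-1.69, limma adjusted p = 0.0209), where 3.55% and 4.46% of all genes passed. With coinciding libraries counted once these had adjusted p = 0.181 and 0.16 (limma), and no gene of the 59 passed.

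Age comparisons of proliferating microglia differed between 6 and 12 months in how many mitotic genes passed. In APP/PS1 Ki67+ libraries 2 were higher and 14 lower at 6 than at 4 months (6.47% and 7.11% of all genes), with a median of -0.75 against -0.06 over all genes. This rests on 2 unlike 6-month libraries. Mean levels of the G2 and mitosis genes were 7.91 in replicate 1 and 7.30 in replicate 2, against 8.06 to 8.43 at 4 months. In WT Ki67+ libraries 5 were higher and 12 lower (9.76% and 16.3%), with a median of -0.29 against -0.12, so that the share of lower genes was close to the background in WT but not in APP/PS1 mice. In the same comparison 7 of 8 astrocyte genes were lower in both genotypes (median -1.68 in APP/PS1 and -1.61 in WT mice), and of the oligodendrocyte and precursor genes 5 were higher in APP/PS1 (2.52) and 4 higher and 1 lower in WT mice (1.38). In WT mice 7 of 8 microglia genes (-1.36) and 5 of 8 neuron genes (-1.07) were lower as well, and in APP/PS1 mice 0 microglia and 3 neuron genes, with 1 neuron gene higher in each genotype. Their part in the mitotic gene changes was not tested. Hmgb2, a chromatin protein, read 7.75 and 7.30 at 6 months against 8.86, 9.40, 8.46 and 9.28 at 4 months in APP/PS1 mice (-1.48 ± 0.30, limma adjusted p = 0.00185, and 0.0529 without 6-month replicate 2). Birc5 read 7.43 and 6.99 against 9.61, 8.85, 8.65 and 8.75 (-1.76 ± 0.39, limma adjusted p = 0.00306, and 0.0645 without 6-month replicate 2). For neither gene did the ages overlap. Cdc20 (-1.94), Ccnb1 (-1.79) and Cenpa (-1.64), the centromeric histone, were further lower genes. Anln and Mad2l1 were the 2 higher ones (1.71 and 1.16), each lost without 6-month replicate 2 (limma adjusted p up to 0.0517 for Anln and 0.171 for Mad2l1), and Mad2l1 also without 6-month replicate 1 or 4-month replicate 1. Among WT libraries Foxm1 (-1.96 ± 0.43, limma adjusted p = 0.00144) and Hmgb2 (-1.28 ± 0.29, limma adjusted p = 0.00231, and 0.0606 without 6-month replicate 2) were lower, and Anln (2.36 ± 0.36, limma adjusted p = 3.66e-05) and Pttg1 (1.59 ± 0.40, limma adjusted p = 0.00444, and 0.0907 without 6-month replicate 2) were higher.

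Between 12 and 4 months none of the 59 passed in WT Ki67+ libraries (0.993% of all genes did, either way) and 1 was lower in APP/PS1 Ki67+ libraries (2.8% of all genes were higher and 2.61% lower). That gene was Kif22, a chromosome arm kinesin, at 7.34, 6.80, 8.06 and 7.00 against 9.42, 9.18, 7.80 and 7.78, which overlap (-1.25, limma adjusted p = 0.0344), and the call was lost without 4-month replicate 1 or 2 or 12-month replicate 1, 2 or 4 (limma adjusted p up to 0.107). In Ki67- libraries none passed at WT 6 months, APP/PS1 6 months or APP/PS1 12 months (0.134%, 0.181% and 4.11% of all genes did, either way). At WT 12 months 2 were higher, Ccnb1 (1.21) and Stmn1 (1.05), and 2 lower, Espl1 (-2.07) and Smc2 (-1.17), where 5.61% and 6.6% of all genes passed. With coinciding libraries counted once none of these 4 passed (limma adjusted p from 0.0958 to 0.414). The 6- and 12-month comparisons share their 4-month libraries.

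**Figure D5:**
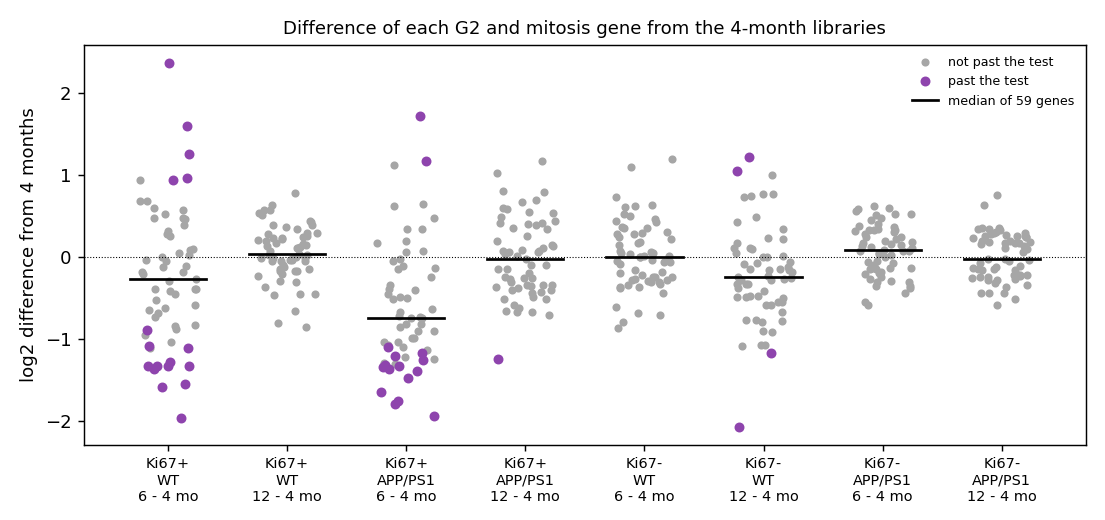
Log2 difference from the 4-month libraries (vertical axis) of each of the 59 genes in the 8 comparisons by sort, genotype and age (horizontal axis). Points are genes, purple where the limma adjusted p is under 0.05, and bars are medians. In APP/PS1 Ki67+ libraries at 6 months the median lies at -0.75, whereas at 12 months the points spread about 0.

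The Ki67 difference was also compared between ages, a comparison added after the data were seen. For APP/PS1 mice none of the 59 passed for 6 or 12 against 4 months (1.7% and 0.0% of all genes, either way). From 6 to 12 months it grew for Ccna2, cyclin A2 (2.52), and Kif2c, a microtubule-depolymerising kinesin (1.45), and shrank for Anln (-1.97), where 0.557% and 1.29% of all genes passed. Each of these 3 calls was lost without either 6-month Ki67- library or 6-month Ki67+ replicate 2, and in 7 or 8 of the 12 refits without 1 library (limma adjusted p up to 0.252). In WT mice it was larger for Anln (1.86) and smaller for Smc2 (-1.70) at 6 than at 4 months (2.76% and 4.82%). Without WT 6-month Ki67+ replicate 2 both were lost, and Smc2 also without Ki67- replicate 2 (limma adjusted p up to 0.164). It was larger for Espl1 (2.05) and smaller for Ccnb1 (-1.66) at 12 than at 4 months (2.31% and 1.72%). From 6 to 12 months 5 genes were higher and 2 lower (7.71% and 4.79%). Anln, one of the lower ones (-1.86), was lost without WT 6-month Ki67+ replicate 2 (limma adjusted p = 0.075). With coinciding libraries counted once none remained for WT 12 against 4 months, and Espl1 and Smc2 remained for WT 12 against 6 months.

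Over the 42 libraries the members' correlation with the mean of the other members had a median of 0.76, and 20 of 59 exceeded 0.8, with Cdca3 (0.96), Birc5 (0.93) and Tpx2 (0.92) at the top. It was below 0 for Mad2l1 (-0.40), Espl1 (-0.38), Kif15 (-0.28), Bub3 (-0.27) and Anln (-0.07). Outside the list, the genes most like the mean of the 59 were Pimreg (Pearson's r = 0.93), C330027C09Rik (0.92), Ckap2 (0.92), Gpm6a (0.91) and Bmpr1b (0.91). These correlations describe libraries that share the sort and 1 normalisation. Of 101 further G2 and mitosis genes tested, 21, 16 and 31 were higher and 13, 18 and 18 lower in WT Ki67+ libraries, and 22, 3 and 20 higher and 9, 3 and 4 lower in APP/PS1 ones. As shares, 20.8%, 15.8% and 30.7% were higher in WT and 21.8%, 2.97% and 19.8% in APP/PS1 mice, against 19.3%, 17.8%, 26.2%, 12.3%, 5.21% and 10.6% of all tested genes, so that only at APP/PS1 4 and 12 months were they well above the background. Their medians were 0.12, 0.01, 0.20, 0.25, -0.08 and 0.37. Among them Cit, citron kinase of cytokinesis (2.49 at APP/PS1 12 months), Pimreg (2.17 at APP/PS1 12 months) and Bora, an activator of Aurora A (2.00 at WT 12 months), had the lowest p. Of 9 CDK inhibitors and pocket proteins tested, which restrain the cycle, 0 to 1 were lower and 1 to 2 higher in each comparison (11.1% to 22.2% higher, where 5.21% to 26.2% of all genes were), near the background. The 3 with the lowest p went in both directions. Cdkn1c, p57, was lower at WT 6 months (-2.99), Cdkn1b, p27, lower at WT 12 months (-1.29) and Rbl2, p130, a subunit of DREAM, higher at WT 6 months (1.93).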

How the data were processed

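RNA from up to 400 sorted, fixed microglia per library was sequenced by the authors, demultiplexed with bcl2fastq 2.20 and quantified with kallisto 0.43.1 on GRCm38, per the labels and the study's methods. The deposited table holds 1 log2-scale expression score per gene and library, normalised by the authors with DESeq2 and with 10 surrogate variables removed. Library depth cannot be read from it, and removal of surrogate variables takes away spread between libraries, so 10 residual degrees of freedom were counted as spent (20 left of 30). These values were fitted with limma 3.58.1 (R 4.3.3) on the means of all 12 groups, for the 14910 of 19151 genes that reached a group mean of 7, with Benjamini-Hochberg adjustment, and genes with an adjusted p under 0.05 count as higher or lower. All p-values are two-sided. The script was tested on simulated data.

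The 60 genes, the marker lists and the further genes were chosen with earlier results of these data known. The rule for naming genes took Cdk1, Ccnb1, Top2a, Plk1, Aurkb, Birc5 and Mki67. It also took up to 3 genes per direction with the lowest p in each comparison of Ki67+ with Ki67- and up to 2 in any other. Values per library are given for part of these genes and comparisons. Genes outside this rule were named after their values were seen. Counting the nearly coinciding libraries once, and comparing the Ki67 difference between ages, were added after seeing the data. Where libraries were counted once, their mean stood for them, and a group left with 1 library was assumed to vary like the others. How much of a library's own deviation the table keeps was measured as the part of it that lies outside the removed directions, as a percent. Promoter windows came from RefSeq (GRCm38.p6), tables and figures from Python 3.11.15 with pandas 2.3.3, numpy 2.4.6 and matplotlib 3.10.9. Fits without a filter, with a minimum of 8, on each age alone, without the 6-month libraries, with library medians subtracted, with other moderation settings and without each library in turn were also run.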

Additional observations from a re-analysis of the deposited data

Results flagged for a closer look

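In 10 of 161 groups of values (22 named genes and the mean of the 59), 1 library lay far from the others of its group by Dixon's criterion, which chance alone gives in about 1 of 20. In APP/PS1 mice at 4 months these were Aurkb in Ki67- replicate 3 (lowest, 5.69), Bub3 in Ki67+ replicate 1 (lowest, 9.66), Foxm1 in Ki67+ replicate 2 (lowest, 6.09), and Kif11 (lowest, 6.41) and Kif15 (lowest, 6.84) in Ki67+ replicate 3. In APP/PS1 mice at 12 months they were Foxm1 in Ki67- replicate 2 (highest, 7.45) and Kif15 in Ki67+ replicate 4 (highest, 8.25). In WT mice at 4 months they were Ccnb2 in Ki67+ replicate 2 (highest, 9.0), Kif2c in Ki67- replicate 5 (highest, 6.76) and Mki67 in Ki67+ replicate 3 (lowest, 6.73).

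The Ki67 difference itself differed between genotypes at 12 months for Kif11 (1.75 larger in APP/PS1 mice) and Smc2 (-1.69), by the limma test of that difference. Between ages in WT mice it differed for Anln (1.86) and Smc2 (-1.70) from 4 to 6 months, for Espl1 (2.05) and Ccnb1 (-1.66) from 4 to 12 months, and for Smc2 (3.03), Espl1 (2.56), Bub3 (-1.56) and Anln (-1.86) from 6 to 12 months. In APP/PS1 mice it differed for Ccna2 (2.52), Kif2c (1.45) and Anln (-1.97) from 6 to 12 months. The values of Kif11, of Smc2 between genotypes, of Espl1 and Ccnb1 from 4 to 12 months, and of Bub3 and Anln from 6 to 12 months in WT mice did not pass with the coinciding WT libraries counted once.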

How the results depend on the processing

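No paired analysis was possible because the library numbers in the titles are each used once, so no number is shared between groups. No difference of a named gene that passed the test changed sign under the alternatives run. Of the differences not past it, those of Mki67 (WT 4 and 6 months, APP/PS1 6 months) and of Cdk1, Ccnb1 and Top2a (APP/PS1 6 months) changed sign when some single libraries were left out. Counts of the 59 genes past the test were 180 over the 6 comparisons of Ki67+ with Ki67-, 12 between genotypes, 2 for the genotype by Ki67 difference, 38 between ages and 14 for the Ki67 difference between ages. Without counting removed directions as spent, the last 4 became 30, 15, 79 and 54, with 11 lower at WT 6 months and 12 higher at APP/PS1 6 months. Without the 6-month libraries, the comparisons at 4 and 12 months gave 12 genes between genotypes (6 otherwise), 6 for the genotype by Ki67 difference (2 otherwise) and 12 between ages (5 otherwise). Fits on each age alone gave 34 between genotypes, 14 for the genotype by Ki67 difference and 9 higher at APP/PS1 6 months, and Mki67 at APP/PS1 12 months (0.82) then passed (limma adjusted p = 0.0241). With coinciding libraries counted once there were 0 for the genotype by Ki67 difference, 7 for the Ki67 difference between ages, and 19 higher and 0 lower at WT 12 months, and Mki67 at WT 12 months (-1.09) no longer passed (limma adjusted p = 0.206).

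Leaving out each library gave 23 to 32, 13 to 20 and 25 to 33 higher genes by rising age in WT and 32 to 40, 2 to 4 and 35 to 42 in APP/PS1 mice. Lower genes numbered 2 to 3, 1 to 7 and 1 to 3 in WT and 1 to 1, 0 to 0 and 0 to 1 in APP/PS1 mice. The lower count at WT 6 months was 2 without Ki67+ replicate 2 and 1 without Ki67- replicate 2, at WT 12 months 1 without any 1 Ki67- library, and at APP/PS1 12 months 1 without Ki67- replicate 2. Over all comparisons of a kind, there were 167 to 192 for Ki67, 9 to 18 between genotypes, 1 to 5 for the genotype by Ki67 difference, 25 to 48 between ages (25 without APP/PS1 6-month Ki67+ replicate 2) and 8 to 23 for the Ki67 difference between ages (8 without WT 6-month Ki67+ replicate 2, 23 without WT 4-month Ki67+ replicate 3). The genotype by Ki67 count was 5 without APP/PS1 4-month Ki67+ replicate 1 or APP/PS1 12-month Ki67- replicate 2, 4 without WT 4-month or WT 6-month Ki67+ replicate 1 or 6-month Ki67- replicate 2 of either genotype, and 1 without WT 12-month Ki67- replicate 1 or 2. The Mki67 difference ranged from -0.15 to 0.31, -0.13 to 0.33 and -1.12 to -1.06 in WT and from 1.08 to 1.46, -0.87 to 0.40 and 0.55 to 1.06 in APP/PS1 mice. Of 48 called Ki67 differences of named genes, 34 passed whichever library was left out, and of 36 other calls of named genes 10 did. The cause of these changes was not tested, apart from the fewer libraries or the degrees of freedom that define the settings.

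Groups of 2 or 3 libraries at 6 months limit those comparisons. The spread of WT 12-month Ki67- libraries (median SD over tested genes 0.032, against 0.184 or more in other groups) is not a measure of variation between mice, and 0.212% to 1.53% of each library's own deviation is kept there. The part kept was also small for WT 12-month Ki67+ replicate 1 (1.79%) and for WT 4-month Ki67- replicates 1 and 2 (3.66% and 3.73%). Next lowest were APP/PS1 12-month Ki67+ replicate 1 (11.3%) and WT 12-month Ki67+ replicate 2 (18.4%). The Ki67+ libraries named here were counted in full in every fit that held them.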
